A study of Mus musculus with 6 samples.

Results

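The globin genes were followed in the cortex of mouse embryos (strain C57BL/6) at embryonic day 12.5, as a gauge of the blood that a dissection carries with it. The members were 9 globin symbols: the embryonic genes Hbb-y, Hbb-bh1 and Hba-x, and the definitive genes Hba-a1, Hba-a2, Hbb-bs, Hbb-bt, Hbb-b1 and Hbb-b2. A row was found under 6 of the 9 symbols (Hbb-y, Hba-x, Hba-a2, Hbb-b2, Hbb-bs and Hbb-bh1), out of 12041 symbols in all. Where a symbol had several rows, the row with the highest mean normalised count was used. The groups were 3 libraries labelled Hdac1&2 cKO, a conditional knockout of both histone deacetylase genes, and 3 libraries labelled WT. The sources used here do not state the driver of the recombinase, the deleted exons or the alleles that the WT embryos carry. Nothing in the labels ties a library to its own embryo, so the tests below measure the scatter between libraries. The columns of the table match no sample title by number, and the libraries are therefore called HM-5, HM-13 and HM-16 (all cKO) or HC-1, HC-8 and HC-10 (all WT).

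Haemoglobin joins alpha-like to beta-like globin chains around haem. In the mouse, the first red cells arise in the yolk sac, enter the circulation still carrying a nucleus, and make the embryonic chains zeta (Hba-x), epsilon-y (Hbb-y) and beta-h1 (Hbb-bh1). Red cells made later in the foetal liver use the adult alpha and beta chains (Hba-a1, Hba-a2, Hbb-bs, Hbb-bt), and yolk sac red cells also add adult chains as they mature. Hbb-bs and Hbb-bt are the adult beta genes of the haplotype that C57BL/6 mice carry, and Hbb-b1 and Hbb-b2 are those of another haplotype. HDAC1 and HDAC2 are subunits of the NuRD and CoREST corepressor complexes, which act with BCL11A in silencing of embryonic and foetal globin genes in red cells. Globin RNA in a brain dissection is usually read as blood left in its vessels.

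Both clusters are compact. In GENCODE M21 (GRCm38), the transcript of the Hbb-y row lies on chromosome 7 at 103851749 to 103853216, that of Hbb-bh1 at 103841637 to 103843164 and that of Hbb-bs at 103826534 to 103827928, all on the minus strand. The row named Hbb-b2 carries ENSMUST00000098192, which GENCODE M21 calls Hbb-bt (chromosome 7, 103812524 to 103813996, minus strand). The transcript of the Hba-x row lies on chromosome 11 at 32276400 to 32278116 on the plus strand. The Hba-a2 row in use carries ENSMUST00000093209, which GENCODE M21 calls Hba-a1 (chromosome 11, 32283511 to 32284465, plus strand). A second Hba-a2 row carries ENSMUST00000093207, which GENCODE M21 calls Hba-a2 (chromosome 11, 32296489 to 32297298, plus strand). Each of these transcripts has 3 exons. By transcript, the 8 globin rows thus hold 7 globin genes, and the names Hba-a2 and Hbb-b2 are kept below as the table gives them.

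The promoters of an embryonic and of definitive members are shown to let their sequences be compared beside their levels. Promoters carry the RefSeq gene names. The Hba-a2 promoter lies before the transcript of the second Hba-a2 row (266 to 578 FPKM). The Hba-a2 row in use carries the transcript of Hba-a1, whose promoter is not printed. Sequences from RefSeq (GRCm38.p6) were found for Hbb-y, Hbb-bs, Hbb-bt, Hba-x, Hba-a1 and Hba-a2. The 150 bases before the RefSeq start were searched on both strands for CACCC, the core of the element bound by the red cell factor KLF1, for the promoter box CCAAT, for TATAA as the core of a TATA box and for GATAA as a core of GATA factor sites. Shown are 1 embryonic beta-like, 1 adult beta and 1 adult alpha promoter on their own gene's strand, 5′ to 3′, with matches in capitals and with bases inside the GENCODE transcript left off.
Hbb-y (chr7:103853217-103853357, minus strand): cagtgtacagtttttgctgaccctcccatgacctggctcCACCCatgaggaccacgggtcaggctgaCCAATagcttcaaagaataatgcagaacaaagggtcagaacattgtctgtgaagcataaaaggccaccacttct
Hbb-bs (chr7:103827929-103828078, minus strand): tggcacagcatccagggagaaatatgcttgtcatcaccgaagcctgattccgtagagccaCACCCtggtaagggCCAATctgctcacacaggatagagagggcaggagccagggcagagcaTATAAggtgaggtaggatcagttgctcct
Hba-a2 (chr11:32296342-32296488, plus strand): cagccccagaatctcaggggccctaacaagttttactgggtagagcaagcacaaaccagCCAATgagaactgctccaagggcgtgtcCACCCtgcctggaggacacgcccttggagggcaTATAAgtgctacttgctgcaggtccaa

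CACCC was present in 6 of the 6 globin promoters, beside 37.4% of all 32851 RefSeq promoters in a window of the same length. CCAAT was present in 5 of the 6 globin promoters, beside 24.5% of all promoters. TATAA was present in 5 of 6, beside 14.2% of all, and GATAA in 1 of 6, beside 13.4%. Hba-x holds no CCAAT and Hbb-y holds no TATAA in these windows. The tabled promoters of Hba-a1 and Hba-a2 share a run of 297 of their 300 bases. These are matches of letters, and no binding was measured.

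Near-identical copies limit what the definitive rows can say one by one. Of all 50-base windows of the GENCODE transcript Hba-a1, 67.5% also occur in Hba-a2, and 86.9% of those of Hba-a2 occur in Hba-a1. Of the 50-base windows of Hbb-bs, 65.8% occur in Hbb-bt, and 58.3% of those of Hbb-bt occur in Hbb-bs. How reads that match both copies were assigned is not given in the sources used here. Sums over the copies depend less on that assignment than single rows do, although reads that were dropped for matching several places would be missing from both. The globin totals and ratios below leave out the second Hba-a2 row, so for the alpha genes they are not such sums.

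The values are FPKM, fragments scaled to transcript length and to a size factor of each library. The reads behind them were recovered from the table (whole numbers within 0.001 of a read in 100% of values). The size factors did not follow total reads: HM-13 had 11473715 reads and a factor of 0.804, HM-5 10023061 reads and 1.06. FPKM and shares of all reads can therefore rank HM-13 differently. Recovered totals, which are sums over the rows given and not all reads sequenced, ran from 9712556 to 11922665 reads per library. The knockout label was checked on its targets. Hdac1 averaged 51.3 ± 8.46 FPKM in cKO and 201 ± 9.82 FPKM in WT libraries (SD, n = 3 each), and Hdac2 averaged 48.9 ± 12.1 FPKM in cKO and 207 ± 69.2 FPKM in WT libraries. HM-13 stood apart in its ribosomal RNA: Rn45s, the precursor of ribosomal RNA, took 29.7% of its reads, against 0.506% to 2.48% in the other 5 libraries. Without Rn45s, HM-13 had the fewest reads (8067640) and HC-8 the most (11626932). Their size factors were also the smallest and the largest (0.804 and 1.19).

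Globin RNA was abundant in every library. The 6 member rows summed to 16883, 24399 and 24816 FPKM in the cKO (HM-5, HM-13 and HM-16), against 20004, 17016 and 14853 FPKM in the WT (HC-1, HC-8 and HC-10). HM-13 and HM-16 lay above all WT libraries, and HM-5 lay below HC-1 and HC-8, so the groups overlapped. These sums made up 3.75%, 4.15% and 5.21% of all FPKM in the cKO libraries and 3.81%, 3.54% and 2.86% in the WT libraries. With Rn45s left out of all FPKM, the share in HM-13 was 4.69%. The shares of the other libraries were then 3.76% and 5.22% in HM-5 and HM-16, and 3.83%, 3.57% and 2.87% in HC-1, HC-8 and HC-10.

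Total globin was 1.26-fold higher in cKO by the ratio of geometric means (0.34 on the log2 scale), a difference within the scatter of the libraries (exact two-sided permutation test, p = 0.3, n = 3 each). Without HM-13, the library with the most Rn45s, the log2 difference was 0.25. The smallest p that 3 against 3 libraries can give is 0.1. This and the 5 tests of shares and ratios below form a family of 6, over which the Benjamini-Hochberg adjusted p was 0.84 for total globin. In bulk RNA, more red cells and more globin RNA per red cell cannot be told apart.

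**Figure D1:**
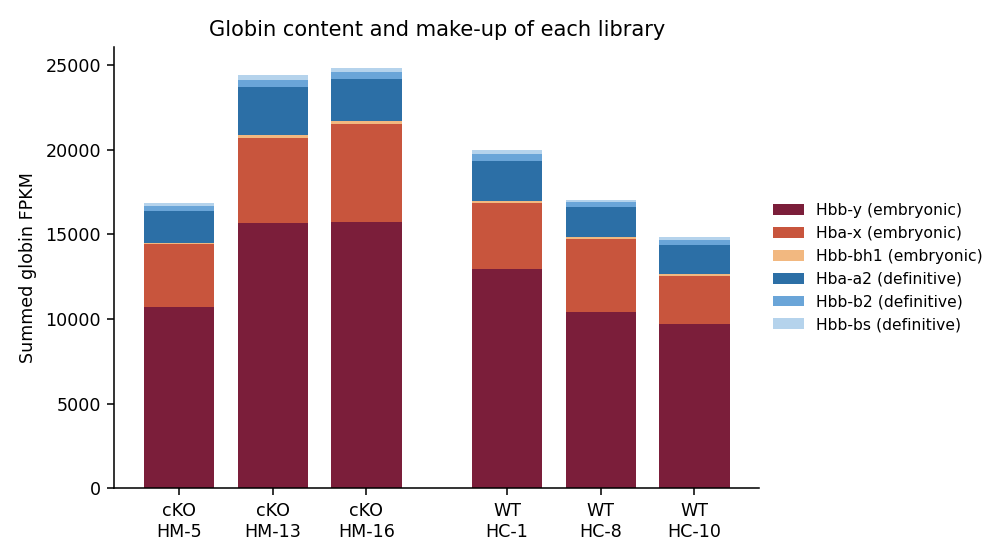
Stacked bars of FPKM per library, summed over the 6 globin rows, with the 3 cKO libraries left of the 3 WT libraries and embryonic genes at the bottom of each bar. The totals run from 16883 to 24816 FPKM in cKO and from 14853 to 20004 FPKM in WT libraries, and Hbb-y makes up most of every bar.

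By reads, the members took 1.16%, 1.12% and 1.64% of the recovered total in HM-5, HM-13 and HM-16, against 1.25%, 1.11% and 0.933% in HC-1, HC-8 and HC-10. The counting error of these shares is small beside the differences between libraries: the 95% Wilson interval was 1.63% to 1.65% in HM-16 and 0.927% to 0.938% in HC-10. Reads are not independent molecules, so these intervals cover counting error only. The share of reads was 1.18-fold higher in cKO (exact two-sided permutation test, p = 0.4, n = 3 each; adjusted p = 0.84). With the Rn45s reads left out of the totals, the share in HM-13 was 1.59%, beside 1.12% of all reads, and the shares of the other libraries changed by little, to 1.17% and 1.65% in HM-5 and HM-16 and to 1.26%, 1.14% and 0.937% in HC-1, HC-8 and HC-10.

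Among the embryonic genes, Hbb-y (epsilon-y, the main beta-like chain of yolk sac red cells) had the highest level of all members. It had 10690, 15673 and 15753 FPKM in the cKO (HM-5, HM-13 and HM-16), against 12939, 10411 and 9693 FPKM in the WT (HC-1, HC-8 and HC-10). HM-13 and HM-16 were above every WT library, and HM-5 was in their midst. The means were 14039 ± 2900 FPKM in cKO and 11014 ± 1706 FPKM in WT (SD, n = 3 each), a log2 fold change of 0.34 ± 0.20 (SE) with a 95% interval of -0.12 to 0.79 (limma on log2(FPKM + 1), Benjamini-Hochberg adjusted p = 0.265). In the authors' deposited table, Hbb-y has a log2 fold change of 0.33 and an FDR of 0.0495, so that the row passes 0.05 there and not in the limma fit; the other member rows with an FDR in the authors' deposited table have values of 0.277 to 0.800. Under quantile normalization of the same values, the log2 fold change was 0.04. That setting gives equal ranks equal values, so it can shrink a difference in a gene of very high level, and no conclusion is drawn from it.

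Hba-x (zeta, the embryonic alpha-like chain) was second in level. It had 3741, 5055 and 5775 FPKM in HM-5, HM-13 and HM-16, against 3928, 4306 and 2862 FPKM in HC-1, HC-8 and HC-10. The lowest library was the WT library HC-10 and the highest were HM-16 and HM-13. The log2 fold change was 0.39 ± 0.20 with a 95% interval of -0.08 to 0.87 (limma adjusted p = 0.221).

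Hbb-bh1 (beta-h1, the earliest beta-like chain, which declines while Hbb-y takes over in yolk sac red cells) was the lowest member. It had 86.0, 147 and 159 FPKM in HM-5, HM-13 and HM-16, against 111, 145 and 94.9 FPKM in HC-1, HC-8 and HC-10. Here HM-5 was the lowest of all libraries, and HC-8 was level with HM-13. The log2 fold change was 0.13 ± 0.24 (limma adjusted p = 0.746), and it was -0.04 without HM-16 and -0.01 without HC-10. A second Hbb-bh1 row with the same transcript held only 11 to 28 reads per library.

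The adult alpha genes were next in level after the embryonic pair. The Hba-a2 row had 1859, 2829 and 2472 FPKM in HM-5, HM-13 and HM-16, against 2355, 1744 and 1719 FPKM in HC-1, HC-8 and HC-10. HM-13 and HM-16 were highest and HM-5 lay between the WT libraries. The log2 fold change was 0.29 ± 0.18 with a 95% interval of -0.13 to 0.72 (limma adjusted p = 0.298). Quantile normalization, which forces all libraries to one distribution, gave 0.47 (adjusted p = 0.0465), the 1 setting in which a member passed 0.05. The second Hba-a2 row had 357, 578 and 498 FPKM in HM-5, HM-13 and HM-16, against 464, 266 and 273 FPKM in HC-1, HC-8 and HC-10. It made up 16.6 ± 0.44% of the 2 rows in cKO libraries and 14.5 ± 1.75% in WT libraries (SD, n = 3 each), and both rows were scaled to the same length, at 6.07 mean normalised counts per FPKM.

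The adult beta genes were far below the embryonic Hbb-y. The Hbb-b2 row (Hbb-bt by transcript) had 296, 441 and 464 FPKM in HM-5, HM-13 and HM-16, against 417, 295 and 293 FPKM in HC-1, HC-8 and HC-10. HM-5 sat with the 2 lowest WT libraries, and HC-1 with the 2 highest cKO libraries. The log2 fold change was 0.25 ± 0.20 (limma adjusted p = 0.415).

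Hbb-bs had 211, 254 and 192 FPKM in HM-5, HM-13 and HM-16, against 254, 116 and 192 FPKM in HC-1, HC-8 and HC-10. HC-8 was well below the other 5 libraries, and HC-1 matched HM-13, the highest cKO library. The log2 fold change was 0.29 ± 0.26 (limma adjusted p = 0.473), and it was -0.02 without HC-8.

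**Figure D2:**
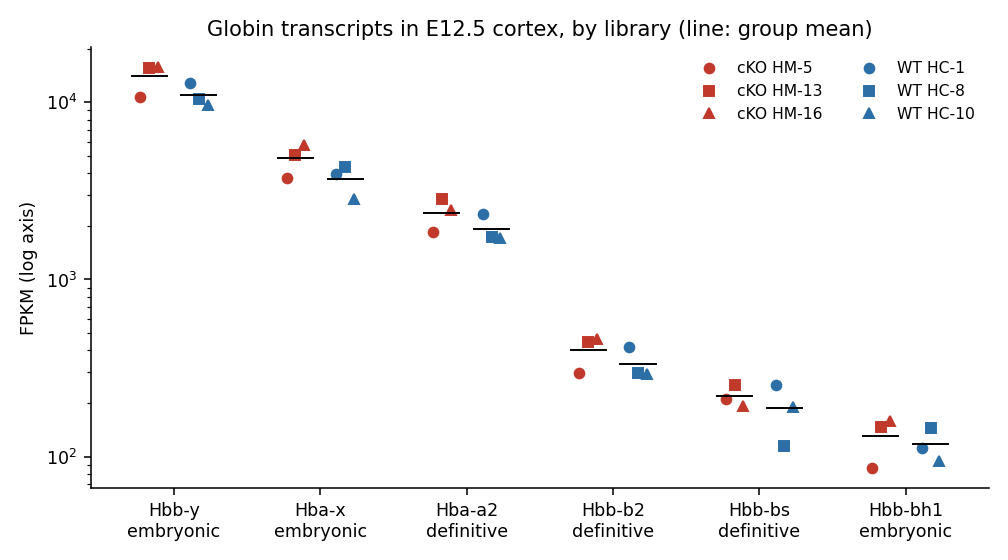
FPKM of each globin row on a log axis, with the 3 cKO libraries (red) left of the 3 WT libraries (blue) and group means as black lines. The genes span from 86.0 FPKM (Hbb-bh1 in HM-5) to 15753 FPKM (Hbb-y in HM-16), and the groups overlap at every gene.

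Levels per length (FPKM), from high to low, ran in the order Hbb-y, Hba-x, Hba-a2, Hbb-b2, Hbb-bs and Hbb-bh1 in 5 of the 6 libraries. In HC-8 the last pair was turned round, with Hbb-bh1 at 145 FPKM and Hbb-bs at 116 FPKM. Over all libraries Hbb-bs and Hbb-bh1 overlapped in range, and each of the other neighbours in this order was separated in every library. Recovered reads per library ran from 63922 to 102833 for Hbb-y and from 593 to 1128 for the Hbb-bh1 row in use.

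None of the 6 members tested was called changed at an adjusted p under 0.05, and none had an unadjusted p under 0.05 in limma or a call with voom on the recovered reads. Over all 9359 genes tested, 18.0% were called. The log2 fold change was above 0 in 6 of the 6 members, with a median of 0.29, beside 48.8% of all genes above 0 and a median of -0.0085 over all genes. The members are measured in the same libraries, so their common direction is not 6 separate observations. Hbb-y, Hba-a2 and Hbb-b2 had nearly the same profile over the libraries. Hbb-bs and Hbb-bh1 departed from it, Hbb-bs by being above its own mean in HM-5 and low in HC-8 and Hbb-bh1 by being above its own mean in HC-8. The 95% intervals reach up to 0.89 on the log2 scale for Hbb-bs and 0.87 for Hba-x.

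Red cell RNA is known to move from embryonic to definitive chains as gestation goes on, and the make-up of globin RNA was therefore compared. Embryonic genes made up 86.0%, 85.6% and 87.4% of globin FPKM in HM-5, HM-13 and HM-16, against 84.9%, 87.3% and 85.2% in HC-1, HC-8 and HC-10. Hbb-y alone was 63.7 ± 0.49% of globin FPKM in cKO and 63.7 ± 2.21% in WT libraries, and Hba-x was 22.0 ± 1.28% in cKO and 21.4 ± 3.39% in WT libraries (SD, n = 3 each). The ratio of embryonic to definitive FPKM was 6.14, 5.92 and 6.93 in HM-5, HM-13 and HM-16, against 5.61, 6.90 and 5.74 in HC-1, HC-8 and HC-10. The highest value of each group, HM-16 and HC-8, stood at nearly the same ratio, and all others lay between 5.61 and 6.14. The ratio was 1.04-fold higher in cKO (exact two-sided permutation test, p = 0.5, n = 3 each; adjusted p = 0.84). The second Hba-a2 row, at 266 to 578 FPKM, is not counted here, so these embryonic shares and ratios are higher than with it. With all rows of a symbol summed, the log2 difference in the ratio was 0.029 in place of 0.060 (same permutation test, p = 0.8).

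Taken by cluster, the beta-like genes were more embryonic than the alpha-like genes in every library. The beta-like ratio, Hbb-y and Hbb-bh1 over Hbb-bs and Hbb-b2, was 21.3, 22.8 and 24.2 in HM-5, HM-13 and HM-16, against 19.5, 25.7 and 20.2 in HC-1, HC-8 and HC-10. It was 1.05-fold higher in cKO (exact two-sided permutation test, p = 0.7, n = 3 each; adjusted p = 0.84). The alpha-like ratio, Hba-x over Hba-a2, was 2.01, 1.79 and 2.34 in HM-5, HM-13 and HM-16, against 1.67, 2.47 and 1.66 in HC-1, HC-8 and HC-10. It was 1.07-fold higher in cKO (exact two-sided permutation test, p = 0.6, n = 3 each; adjusted p = 0.84). With the second Hba-a2 row added, the log2 difference was 0.061 in place of 0.098 (same permutation test, p = 0.8). HC-8 and then HM-16 had the highest value by either cluster.

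The ratio of the adult beta rows was lowest in the same 2 libraries. Hbb-bs over Hbb-b2, the 2 adult beta rows, was 0.413 in HM-16 and 0.392 in HC-8, against 0.711 and 0.576 in HM-5 and HM-13 and 0.608 and 0.656 in HC-1 and HC-10. Hbb-bh1 as a percentage of Hbb-y was 0.804%, 0.936% and 1.01% in HM-5, HM-13 and HM-16, against 0.859%, 1.39% and 0.979% in HC-1, HC-8 and HC-10. HC-8 was the highest, and HM-16 lay close to HC-10 and HM-13. HM-16 and HC-8 were also the libraries with Xist RNA, at 105 FPKM in HM-16 and 155 FPKM in HC-8, against at most 0.0943 FPKM in the other 4 libraries. The part of the embryo's sex, exact stage or litter in these ratios was not tested.

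The proportion of alpha-like to beta-like RNA varied less between libraries than total globin did. The ratio of Hba-x and Hba-a2 to the beta-like rows was 0.496, 0.477 and 0.498 in HM-5, HM-13 and HM-16, against 0.458, 0.552 and 0.446 in HC-1, HC-8 and HC-10. It was 1.02-fold higher in cKO (exact two-sided permutation test, p = 0.9, n = 3 each; adjusted p = 0.9), and the largest of the 6 values was 1.24 times the smallest. Over the same libraries total globin differed by up to 1.67-fold.

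**Figure D3:**
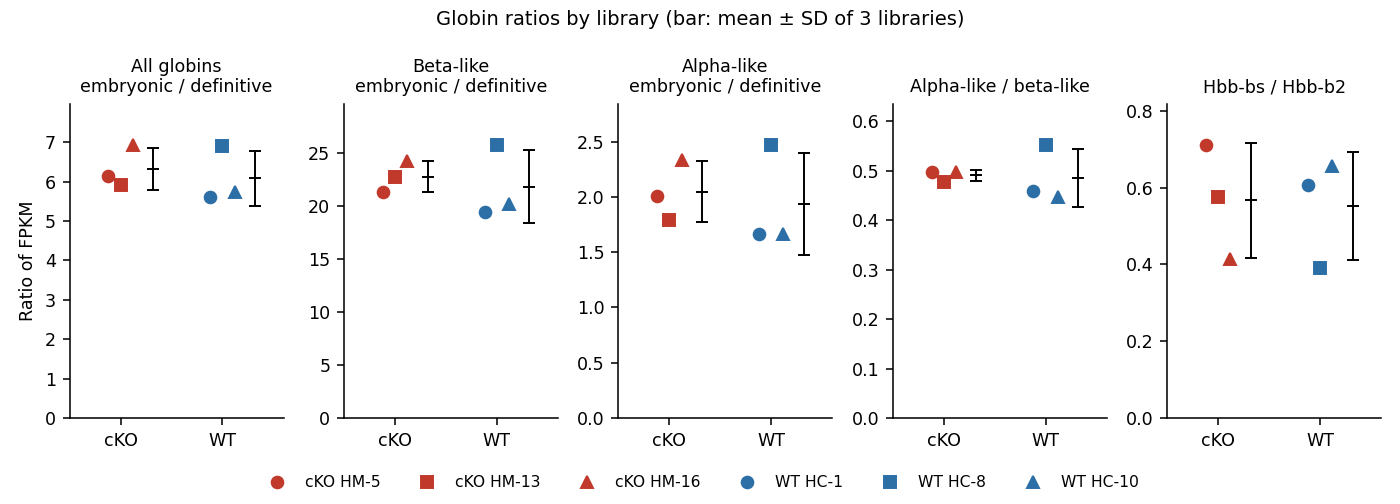
Ratios of FPKM in each library, all axes from 0, with cKO (red) left of WT (blue) and the mean ± SD of 3 libraries beside the points. HM-16 and HC-8 hold the highest embryonic to definitive ratio of their groups (6.93 and 6.90) and the lowest Hbb-bs to Hbb-b2 ratio (0.413 and 0.392).

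Genes of the red cell itself were compared with the globins library by library, and some resembled them more closely than others. Slc4a1, the band 3 anion exchanger of the red cell membrane, had 50.4, 64.0 and 68.4 FPKM in HM-5, HM-13 and HM-16, against 54.7, 53.7 and 34.3 FPKM in HC-1, HC-8 and HC-10. As with the globins, HM-13 and HM-16 were highest and HC-10 lowest. Its log2 fold change was 0.37 ± 0.19 (limma adjusted p = 0.216). Globin FPKM per Slc4a1 FPKM was 335, 381 and 363 in HM-5, HM-13 and HM-16, against 366, 317 and 432 in HC-1, HC-8 and HC-10, with overlapping groups.

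Rhag, the Rh-associated membrane glycoprotein, tracked the globins more closely still. It had 3.32, 5.21 and 5.16 FPKM in HM-5, HM-13 and HM-16, against 4.15, 3.73 and 3.08 FPKM in HC-1, HC-8 and HC-10. Likeness was measured as the root mean square difference, over the 6 libraries, between a gene's centred log2(FPKM + 1) and the mean of the 6 globins. Of 9353 other genes the 5 most alike were Gucy1a3 (a subunit of soluble guanylate cyclase, 0.036), Uqcrh (a subunit of mitochondrial complex III, 0.054), Rhag (0.058), Tomm6os (an antisense transcript, 0.069) and Slc43a3 (a purine transporter, 0.075). For scale, Hbb-y itself differed from the globin mean by 0.034, Hba-x by 0.18 and Hbb-bs by 0.33. Among red cell genes, Car2 (carbonic anhydrase II) ranked 29, Trim10 (a factor of terminal red cell maturation) 67, Slc4a1 131 and Kel (the Kell blood group protein) 181. Others ranked much lower by this measure: Gata1 ranked 1133, Rhd (an Rh blood group protein) 2074, Klf1 4037 and Epor (the erythropoietin receptor) 6026. The measure counts the size of the swings as well as their order, so a low rank need not mean another order. Epor was, like the globin mean, highest in HM-13 and HM-16 (3.62 and 3.06 FPKM) and lowest in HC-10 (0.513 FPKM). Klf1, Gata1 and Rhd did have another order, although they too were lowest in HC-10. Klf1 was highest in HC-8 and HC-1 (5.42 and 5.33 FPKM), with 3.78 FPKM in HM-13. Gata1 was highest in HC-8 (2.27 FPKM), and Rhd was higher in HC-8 than in HM-13 (3.16 and 2.84 FPKM). Of the 5 most alike genes, the 4 other than Rhag are not restricted to red cells, and with 6 libraries many genes can resemble a pattern.

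**Figure D4:**
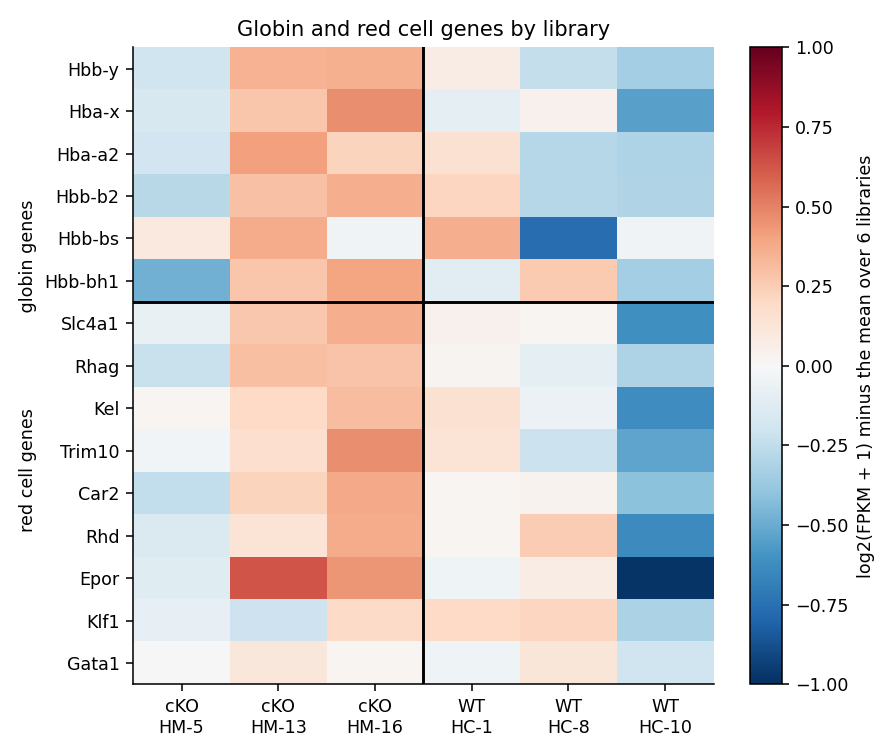
Log2(FPKM + 1) minus each gene's mean over the 6 libraries, with cKO columns left of WT columns, globins above the line and 9 red cell genes (chosen after their values were seen) below it. HM-13 and HM-16 are above the mean for most rows and HC-10 is below the mean in every row, while Hbb-bs is lowest in HC-8.

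Calls in lists of red cell and haem genes were set beside the share called over all genes. Of 64 genes in 6 lists, 41 had a row, 37 were tested, 4 were called higher and 1 was called lower in cKO, which is 5 of 37 beside 18.0% of all genes. Of the 37 genes, 31 had a log2 fold change above 0, and their median was 0.20, beside -0.0085 over all genes. Without HM-13 the counts were again 4 higher and 1 lower, with Prdx2, a peroxiredoxin, the lower one in place of Gypc. Over 11 alternatives, 2 to 6 genes of these lists were called. The pseudocount of 5 and summed rows were not among the alternatives for this count. Several of the lists hold genes that other cells use too.

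In the list of membrane and skeleton genes, 0 of 9 tested members rose and 1 fell, beside 18.0% called over all genes. Slc4a1, Kel and Rhd had log2 fold changes of 0.37, 0.35 and 0.24, with limma adjusted p of 0.216, 0.233 and 0.519. The gene that fell was Gypc, glycophorin C, with 14.7 ± 1.63 FPKM in cKO and 20.2 ± 2.76 FPKM in WT (SD, n = 3 each), a log2 fold change of -0.43 ± 0.12 (limma adjusted p = 0.0479). The call was lost without HM-5, HM-13, HM-16, HC-1 or HC-8, at an adjusted p of up to 0.121, and also with library totals without Rn45s (0.0937) and with no filter on low values (0.0530).

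In the list of red cell enzymes and maturation genes, 1 of 7 tested members rose and 0 fell, beside 18.0% called over all genes. The one that rose, Blvrb, is also in the list of haem breakdown and is described there. Car2 had 78.4 ± 16.9 FPKM in cKO and 66.0 ± 11.1 FPKM in WT, with a log2 fold change of 0.24 (limma adjusted p = 0.397). Bpgm, which makes the bisphosphoglycerate that tunes oxygen binding, had 39.3 ± 3.22 FPKM in cKO and 38.3 ± 2.87 FPKM in WT (adjusted p = 0.783). Trim10 and Epor had log2 fold changes of 0.40 and 0.63 with adjusted p of 0.180 and 0.194.

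Among erythroid transcription factors, 1 of 6 tested members rose and 0 fell, a share near the 18.0% called over all genes. The one that rose was Zfpm1 (FOG1, a cofactor that binds GATA1), with 20.2 ± 3.26 FPKM in cKO and 6.20 ± 1.94 FPKM in WT, a log2 fold change of 1.58 ± 0.20 (limma adjusted p = 0.0037) that held without any 1 library. Its partner Gata1, the factor that drives red cell gene expression, had 2.10 ± 0.14 FPKM in cKO and 1.94 ± 0.32 FPKM in WT (adjusted p = 0.674). Klf1, which activates adult beta-globin, had 4.44 ± 0.79 FPKM in cKO and 4.73 ± 1.13 FPKM in WT (adjusted p = 0.833). Ldb1 and Lyl1, the other members with the highest levels, had log2 fold changes of -0.15 and 0.12 with adjusted p of 0.239 and 0.696.

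Of 8 tested genes of haem synthesis, 1 rose and 0 fell, beside 18.0% called over all genes. Abcb10, a mitochondrial transporter needed for haem synthesis in red cells, had 26.4 ± 1.36 FPKM in cKO and 20.8 ± 1.05 FPKM in WT, a log2 fold change of 0.33 ± 0.07 (limma adjusted p = 0.0217), and the call was lost without HM-5, HM-16, HC-8 or HC-10, at an adjusted p of up to 0.0873. Ppox, Urod and Slc25a38, enzymes and a carrier of the same pathway with the highest levels beside it, had log2 fold changes of 0.04, 0.20 and 0.08 with adjusted p of 0.753, 0.145 and 0.474. None of the 5 tested genes of iron supply was called, beside the same 18.0% of all genes. Fth1, ferritin heavy chain, had 535 ± 4.46 FPKM in cKO and 480 ± 37.6 FPKM in WT (adjusted p = 0.161), and Trf, transferrin, had 10.2 ± 0.59 FPKM in cKO and 9.10 ± 3.47 FPKM in WT (adjusted p = 0.547).

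Of 4 tested genes of haem breakdown and export, 2 rose and 0 fell, beside 18.0% called over all genes. Hmox1, haem oxygenase 1, which opens the haem ring, had 27.5, 27.0 and 29.0 FPKM in HM-5, HM-13 and HM-16, against 17.8, 13.7 and 15.9 FPKM in HC-1, HC-8 and HC-10. All cKO libraries lay above all WT libraries, and the same held for 19.5% of all genes tested. The relation of Hmox1 to globin content was not tested. The means of Hmox1 were 27.8 ± 1.03 FPKM in cKO and 15.8 ± 2.04 FPKM in WT (SD, n = 3 each), a log2 fold change of 0.78 ± 0.10 (limma adjusted p = 0.0040) that held without any 1 library. Blvrb, biliverdin reductase B, which reduces biliverdin and is also abundant in red cells, had 7.36, 7.78 and 8.77 FPKM in HM-5, HM-13 and HM-16, against 4.11, 4.54 and 2.5 FPKM in HC-1, HC-8 and HC-10. Its groups did not overlap either. The means were 7.97 ± 0.72 FPKM in cKO and 3.71 ± 1.08 FPKM in WT, a log2 fold change of 0.95 ± 0.18 (adjusted p = 0.0139), with an adjusted p of 0.0594 without HM-16. Blvra, the other biliverdin reductase, had 0.760 ± 0.20 FPKM in cKO and 1.31 ± 0.39 FPKM in WT (adjusted p = 0.122), and Slc40a1, the iron exporter ferroportin, had 7.29 ± 0.08 FPKM in cKO and 6.29 ± 1.41 FPKM in WT (adjusted p = 0.374).

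**Figure D5:**
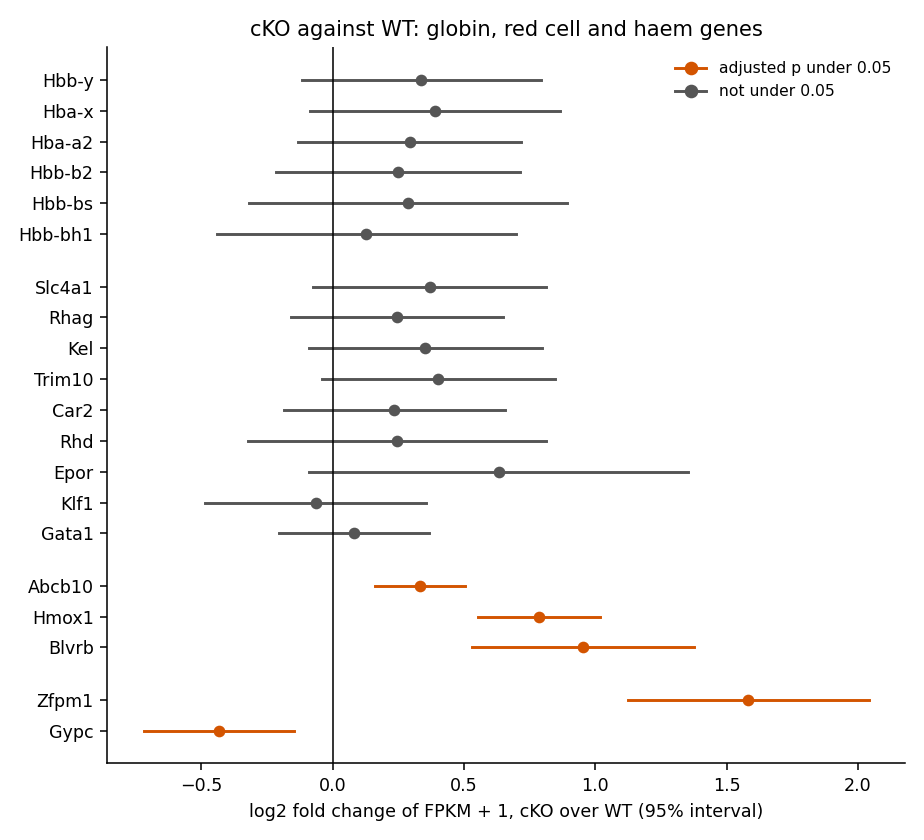
Log2 fold change of FPKM + 1 in cKO over WT with its 95% interval, for the globins, 9 red cell genes and the 5 genes called in the red cell and haem lists (orange where the adjusted p is under 0.05). Every globin interval includes 0, with estimates from 0.13 (Hbb-bh1) to 0.39 (Hba-x), while the intervals of Hmox1 (0.78), Blvrb (0.95) and Zfpm1 (1.58) lie above 0.

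Regulators known from globin silencing were measured in the whole tissue, where most of their RNA need not come from red cells. None of 12 tested was called, beside 18.0% of all genes, and 2 had an unadjusted p under 0.05 in limma. Bcl11a, the repressor of embryonic and foetal globin genes, had 29.7 ± 0.82 FPKM in cKO and 28.0 ± 2.86 FPKM in WT (limma adjusted p = 0.520). Mta2, a NuRD subunit, had 157 ± 6.93 FPKM in cKO and 173 ± 2.41 FPKM in WT (adjusted p = 0.114). Kdm1a, the demethylase of CoREST, had 139 ± 3.41 FPKM in cKO and 143 ± 8.23 FPKM in WT (adjusted p = 0.725). Rcor1, the CoREST scaffold, had 34.5 ± 2.90 FPKM in cKO and 28.4 ± 1.94 FPKM in WT (adjusted p = 0.0631), and it was called higher without HM-13 (adjusted p = 0.0380).

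Globins outside the 9 members were low. Hbq1b, a theta globin of the alpha cluster, had 4.04 ± 1.25 FPKM in cKO and 3.64 ± 0.22 FPKM in WT (limma adjusted p = 0.773), and Cygb, cytoglobin, which is not a red cell protein, had 3.70 ± 0.69 FPKM in cKO and 4.60 ± 0.75 FPKM in WT (adjusted p = 0.283).

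Markers of other cells that a dissection carries were set beside the globins, and their part in the globin values was not tested. The share called over all genes, to set beside the counts of these short lists, was 18.0%. Over 8 endothelial and pericyte genes with a row, the summed level was 128 to 165 FPKM in cKO and 96.4 to 168 FPKM in WT libraries, and 0 of 6 tested were called; Cldn5 and Cdh5, both of endothelial junctions, had 43.0 ± 5.77 and 29.4 ± 5.75 FPKM in cKO and 37.6 ± 14.4 and 23.6 ± 8.53 FPKM in WT. Over 9 genes of meninges and mesenchyme the sum was 257 to 412 FPKM in cKO and 219 to 467 FPKM in WT libraries, and 0 of 9 tested were called; Col3a1 had 167 ± 40.1 FPKM in cKO and 147 ± 65.0 FPKM in WT, and Lum 65.2 ± 9.45 FPKM in cKO and 68.5 ± 19.0 FPKM in WT. HC-1, HM-16 and HM-5 had the highest sums for meninges, which is not the order of the globins. Over 5 genes of megakaryocytes and platelets the sum was 44.6 to 74.2 FPKM in cKO and 39.4 to 75.5 FPKM in WT libraries, and 0 of 3 tested were called; Pf4 and Ppbp, chemokines stored in platelets, had 31.0 ± 10.1 and 16.3 ± 5.0 FPKM in cKO and 35.2 ± 7.90 and 18.5 ± 7.97 FPKM in WT.

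Of 9 tested genes of microglia and other leukocytes, 2 rose and 0 fell, a share near the 18.0% called over all genes. The sum over the 9 genes was 85.6 to 100.3 FPKM in cKO and 64.2 to 84.5 FPKM in WT libraries. Tyrobp, an adaptor of myeloid receptors, had 14.9 ± 2.06 FPKM in cKO and 8.92 ± 1.13 FPKM in WT, a log2 fold change of 0.68 ± 0.13 (limma adjusted p = 0.0150; 0.0625 without HM-16). C1qb, a complement subunit, had 17.4 ± 0.69 FPKM in cKO and 12.3 ± 1.39 FPKM in WT, a log2 fold change of 0.47 ± 0.10 (adjusted p = 0.0170; up to 0.0703 without HM-5, HM-16 or HC-10). Macrophages also make Hmox1, and the part of these cells in the Hmox1 difference was not tested.

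The tissue label was checked on genes of the cortex. The 12 genes with a row summed to 1757 to 1925 FPKM in cKO and 1808 to 2125 FPKM in WT libraries, and summed globin FPKM was 9.61 to 13.4 times that of these genes in cKO and 6.99 to 11.1 times in WT libraries. Of 12 tested, 2 rose and 0 fell, beside 18.0% called over all genes. Without HM-13, 2 were called higher and 2 lower, the lower ones being Tbr1 and Tubb3 (limma adjusted p = 0.012 and 0.035). Emx2, a transcription factor of the dorsal cortex and 1 of the 2 that rose, had 240 ± 48.9 FPKM in cKO and 158 ± 13.7 FPKM in WT (SD, n = 3 each; limma adjusted p = 0.0360). Emx2 lost its call without any 1 library other than HM-13 (adjusted p of up to 0.129).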

How the data were processed

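Cortex RNA was measured in 6 libraries (TruSeq RNA kit, per the labels' protocols). Per the submitters' processing notes, base calls went through bcl2fastq 1.8.4, and the notes also name DESeq2 1.22.1, featureCounts 1.6.1, STAR 2.5.4b, R 3.4.1 and build mm10; neither strandedness nor the treatment of reads that match several places is given in the sources used here. Per the file headers, the table gives FPKM per library. The authors' deposited table also gives each row's mean normalized count, used here as a signal over all libraries, with a log2 fold change, an FDR and a p-value of the authors' own. Columns starting HC were read as control (WT) and those starting HM as mutant (cKO).

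Reads were recovered from the deposited FPKM and mean normalized counts. The table has 14379 rows and 12041 symbols. Symbols that reached an FPKM of 1 in 3 or more libraries (9359) entered a fit of log2(FPKM + 1) in limma 3.58.1 (R 4.3.3, trended empirical Bayes, group as the only term), and Benjamini-Hochberg adjusted p-values under 0.05 over all 9359 were called; "rose" and "fell" mean such calls. Because of the pseudocount of 1, fold changes of low genes are understated. Single values were tested by exact permutation over the 6 libraries (scipy 1.17.1). The fit was tested on simulated data. The members, lists and tests were chosen with earlier results of these data known. Genes were named by a rule: every member, called list members, the 2 highest of a list with no call, the 3 highest of 4 red cell lists and the 5 most alike patterns. Blvra, Bcl11a, Epor, Gata1, Klf1, Prdx2, Rcor1, Rhd, Slc40a1 and Xist were added after their values were seen. A few genes that the rule takes are not reported here. A list of liver and yolk sac genes (8 genes, 0 with a row), and Hba-a1, Hbb-bt and Hbb-b1 by symbol, were not analysed here. Alternatives were other pseudocounts (0.1 and 5), no filter, voom, totals without Rn45s, quantile normalization, summed rows and leaving out each library.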

Additional observations from a re-analysis of the deposited data

How the results depend on the processing

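No paired analysis was possible because the table's columns carry no replicate numbers that match the sample titles. Total globin and the globin share of reads kept their direction and missed 0.05 under all 8 and 7 alternatives, at 0.23 to 0.52 and 0.07 to 0.40 (log2, cKO over WT). Hbb-y, Hba-x and Hbb-b2 also kept direction and stayed uncalled in all 13 alternatives each, over 0.04 to 0.52, 0.22 to 0.57 and 0.13 to 0.45. The 0.04 of Hbb-y came from quantile normalization, which can shrink differences in genes of very high level. Hba-a2 was called under quantile normalization (0.47); the cause was not tested. With 1 library left out, some values changed sign: Hbb-bh1 ranged from -0.037 to 0.40 (-0.0095 without HC-10), Hbb-bs from -0.021 to 0.54, the embryonic to definitive ratio from -0.0069 to 0.15, its beta-like form from -0.0048 to 0.20, its alpha-like form from -0.0026 to 0.29 and the alpha-like to beta-like ratio from -0.035 to 0.12 (-0.016 without HC-1). Recovered reads in place of FPKM, and summed rows, changed the sign of no ratio. With 1 library left out, 2 to 5 genes of the red cell and haem lists were called, against 5 with all libraries; fewer libraries were then compared. Hmox1 and Zfpm1 stayed called in 13 of 13 alternatives each. With 3 libraries a group, the exact tests could not pass 0.05 at all. The globin read counts are large, so the scatter between libraries, not counting, limits what can be detected.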
